A study of Mus musculus with 176 samples.

Results

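The SLAM family receptors and their adapter are the subject of this account, in single CD4 T cells of mice vaccinated with a peptide of apolipoprotein B. The 7 members were chosen by name, not by a threshold on their values, although earlier results of these data were known: the receptor genes *Slamf1*, *Slamf6*, *Slamf7*, *Cd84*, *Ly9* and *Cd48* and the adapter gene *Sh2d1a*. They are 7 of the 53546 gene names in the count table, and each was listed once. Female C57BL/6J mice, bought at 7 weeks of age, were injected in the thigh muscles with the P6 peptide in complete Freund's adjuvant and boosted 2 weeks later in incomplete adjuvant, and the draining lymph nodes were taken after a further 2 weeks. CD4 T cells were stained with a P6:I-Ab tetramer, a cluster of MHC class II molecules that carry the peptide, and sorted 1 per well for full-length Smart-Seq2 libraries. The groups were 32 tetramer-binding (P6+) cells, all from 1 mouse, and antigen-experienced (CD44hi CD62L-) CD4 T cells that did not bind the tetramer (P6-), 176 cells in all. All of them came from immunized animals, and the labels did not tie P6- cells to animals. Within the P6+ cells, the 16 with 10 or more reads of *Trbv13-2*, a T cell receptor beta V segment, were compared with the 16 below that number. A group was therefore 1 sample, so no test was made and every interval covers counting error only.

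SLAM receptors are immunoglobulin-like surface proteins of blood cells. Most of them, SLAMF1, SLAMF6, SLAMF7, CD84 and LY9 among them, bind a copy of themselves on a neighbouring cell, whereas CD48 is held by a lipid anchor and serves as a ligand of CD2 and of CD244. Phosphorylated tyrosines in the tails of several receptors are bound by SAP, the small SH2 adapter encoded by *Sh2d1a*, which brings in the kinase FYN. SAP is best known in CD4 T cells for the lasting contact of follicular helper T cells with B cells in germinal centres.

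The 6 receptor genes lie side by side on mouse chromosome 1. In GRCm38 with the GENCODE M21 annotation they span 365 kb, chr1:171588624-171953170. From the lower coordinate upwards the order was *Ly9*, *Slamf7*, *Cd48*, *Slamf1*, *Cd84* and *Slamf6*, with *Ly9* and *Slamf7* on the minus strand and the others on the plus strand. *Sh2d1a* is on another chromosome, chrX:42502453-42529330, plus strand. RefSeq promoter windows (GRCm38.p6) matched 5 of the 7 members, namely *Slamf1*, *Slamf6*, *Slamf7*, *Cd84* and *Cd48*, and did not match *Ly9* and *Sh2d1a*. The 250 bases upstream in the windows of *Slamf1* (chr1:171766882-171767131, plus strand) and *Slamf6* (chr1:171917212-171917461, plus strand) are printed because these 2 members had the highest log2 ratios against the P6- cells with the same cell-name prefix. Capitals mark the letters GGAA or, for the other strand, TTCC, the core of the sites of ETS factors.
Slamf1: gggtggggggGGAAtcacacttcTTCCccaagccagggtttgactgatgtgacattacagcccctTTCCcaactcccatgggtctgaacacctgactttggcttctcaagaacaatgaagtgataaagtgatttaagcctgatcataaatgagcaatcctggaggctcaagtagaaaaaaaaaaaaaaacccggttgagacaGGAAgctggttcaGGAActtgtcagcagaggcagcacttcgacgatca
Slamf6: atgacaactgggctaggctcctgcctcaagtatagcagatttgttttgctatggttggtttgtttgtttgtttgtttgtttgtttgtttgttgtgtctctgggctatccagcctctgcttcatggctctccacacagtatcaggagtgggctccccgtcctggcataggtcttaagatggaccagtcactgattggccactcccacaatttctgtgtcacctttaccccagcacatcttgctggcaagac
The *Slamf1* window held these letters at 5 places and the *Slamf6* window at 0, while 93.4% of the 32851 RefSeq mouse windows of that length held them at least once. CTTTGA, a core of TCF and LEF sites searched on both strands, was in neither window and in 13.8% of all of them. Such a match is a run of letters, and its lack says only that the letters are not in the window.

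All 32 P6+ cells passed the filters of 500000 reads, 2000 genes and less than 10% mitochondrial reads, as did all but 15 of the P6- cells, so that 161 cells were used. Library totals ran from 956280 to 3332191 reads for P6+ cells, in which 4396 genes were read at the median, against 3432 genes in P6- cells. All P6+ cells carried 1 of the 8 prefixes found in the cell names, shared with 11 passing P6- cells. No label says what a prefix stands for, and tetramer binding and prefix cannot be told apart against the P6- cells of the other prefixes. CD4 T cell genes (10 of 10 measured) summed to 7494 reads per 1000000 reads (cpm) in P6+ and 8386 cpm in P6- cells, and *Cd4* itself stood at 401 and 393 cpm. The CD8 genes were at 0 in P6+ and at 12.1 cpm in P6- cells, myeloid genes summed to 0.0169 and 0.0343 cpm, and natural killer genes to 0.0169 and 3.15 cpm. Of 8 B cell genes, *Ighm*, the IgM heavy chain, stood at 999 cpm in P6+ and 548 cpm in P6- cells and *Cd79b* at 46.1 cpm in 2 P6+ cells, while *Cd79a* and *Ighd* were at 0 in both groups. Genes of naive cells summed to 1082 cpm in P6+ and 3097 cpm in P6- cells. The part of these levels in the SLAM gene values was not tested. Leaving out the 2 cells with *Cd79b* kept most of the 14 P6+ cells with 10 or more reads of *Ighm*, and 0 members were then past 2-fold between P6+ and P6- cells, against 2149 genes higher and 2687 lower of 9005 tested.

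Reads of the SLAM genes came in an all-or-few pattern. Over the 6 genes other than *Slamf7* and the 161 passing cells there were 966 values, of which 14.3% were at 100 or more reads, only 6 values were at 10 to 99 reads and 30.1% were at 1 to 9 reads. For *Slamf1* no cell held more than 4 and fewer than 100 reads. A cell with 10 or more reads of a gene is called a carrier of it here. Cells below that number together held between 0.145% and 0.212% of the reads of each of these 6 genes. A few reads in a cell are therefore not read as expression. The smallest *Sh2d1a* carrier held 13 reads and the smallest *Cd48* carrier 49 reads. *Slamf7*, a receptor best known from natural killer and plasma cells, was almost unread: 1 read in all P6+ cells, and 23 reads in P6- cells, of which 15 were in 1 cell with the P6+ prefix.

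**Figure D1:**
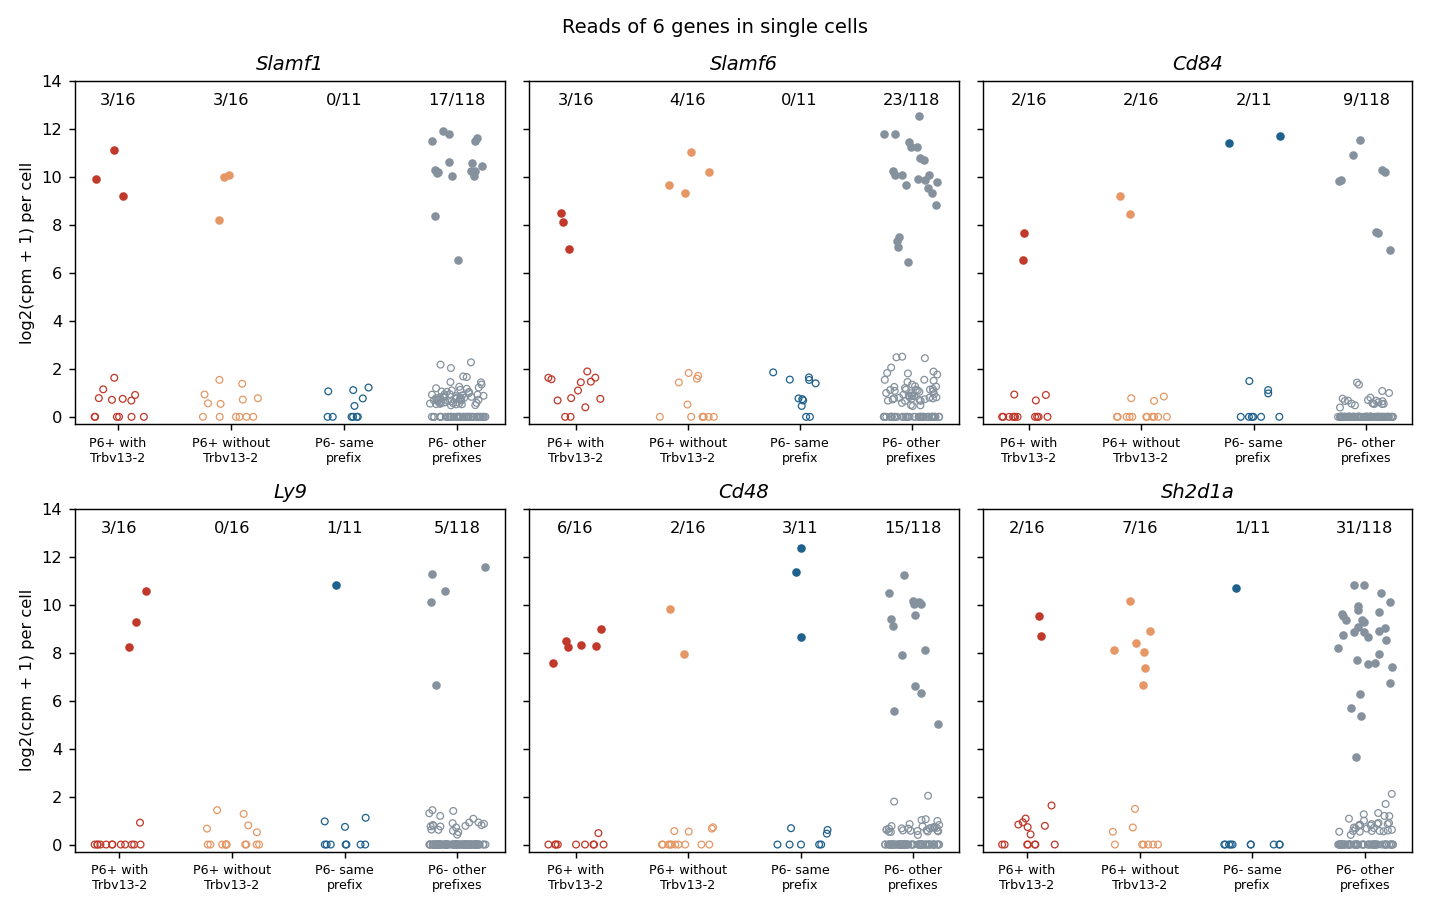
Each point is a cell, and its height is log2(cpm + 1) of the gene named above the panel. Filled points are carriers (10 or more reads), open points are the other cells, and the numbers give carriers of all cells. In each panel most cells lie near 0 and the carriers stand well above them, for example 3 of 16 and 3 of 16 P6+ cells for Slamf1 and 0 of 11 P6- cells of the same prefix.

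Levels of different genes were compared only per length, as pooled cpm per kb of annotated exon. *Cd48* then led in both groups, at 82.01 cpm per kb in P6+ and 95.3 cpm per kb in P6- cells. *Slamf1* followed at 30.3 and 45.4 cpm per kb. The adapter gene *Sh2d1a* stood at 23.2 cpm per kb in P6+ and 27.9 in P6- cells, *Slamf6* at 17.1 and 28.8, and *Ly9* at 16.998 and 23.002. *Cd84* was the lowest of the 6, at 8.36 and 16.5 cpm per kb. The order rested on few carriers, and the spread between animals is unknown. In P6- cells pooled by name prefix it varied, with *Cd48* in front under 4 of the 8 prefixes, *Slamf1* under 3 and *Sh2d1a* under 1.

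**Figure D2:**
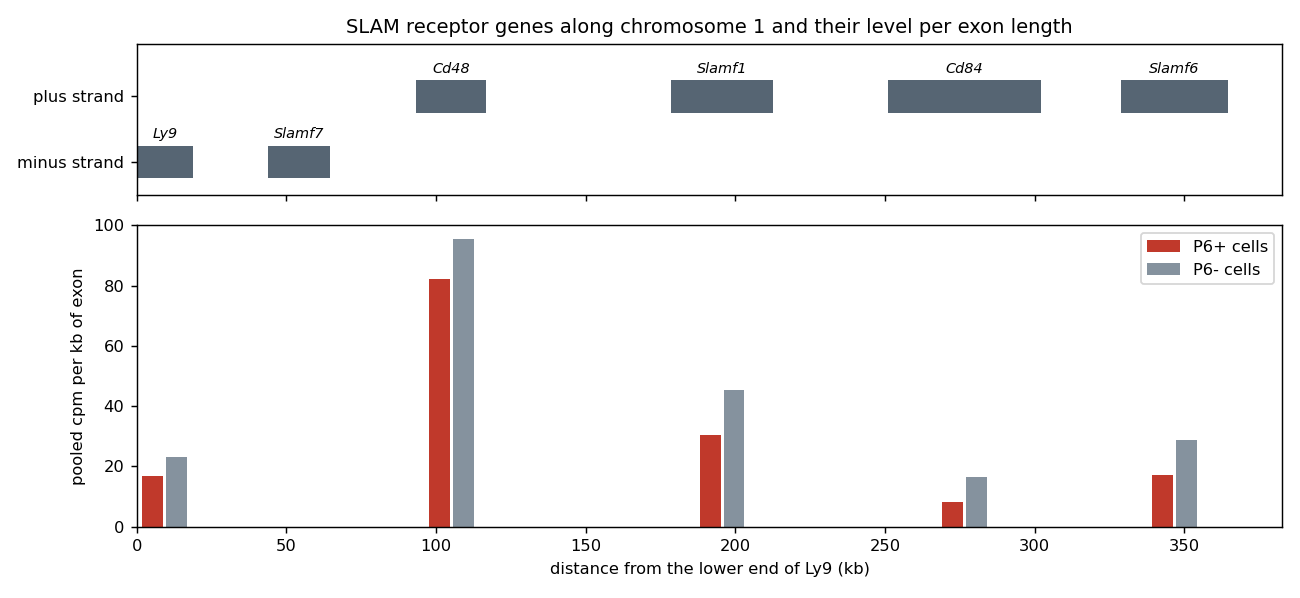
The upper panel draws the 6 receptor genes along chromosome 1 by strand, and the lower panel their pooled cpm per kb of exon in the P6+ and the passing P6- cells, both against the distance in kb from the lower end of Ly9. Cd48 has the tallest bars, at 82.01 and 95.3 cpm per kb, and Slamf7 has none that can be seen.

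Each of the 6 measured members was read at a lower pooled level in P6+ than in P6- cells, though *Ly9* had a log2 ratio of 0.02 after thinning, and 0 of the 6 passed 2-fold. Over all genes 53.2% of the 9029 tested passed 2-fold in either direction, so a difference of that size was common between these pools. The median log2 ratio was -0.51 for the members and -0.04 for all genes tested. Both are differences of log2(cpm + 1), for which genes with a mean under 5 cpm over both groups were left out, as *Slamf7* was.

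Among the self-binding receptors, *Slamf1* (also CD150) had 6 P6+ carriers at 298, 590, 967, 1015, 1071 and 2209 cpm. The 17 P6- carriers ran from 92.4 to 3843 cpm with a median of 1237 cpm, so the carriers of both groups overlapped. Pooled over all cells, *Slamf1* stood at 187 cpm (exact Poisson interval 183 to 190.2) in P6+ and 279.8 cpm (277 to 282) in P6- cells, a log2 ratio of -0.58. Carriers made up 18.8% of P6+ (exact binomial interval 7.21 to 36.4%) and 13.2% of P6- cells (7.87 to 20.3%).

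*Slamf6* (Ly108), a receptor that marks less differentiated T cells and acts through SAP, had 7 P6+ carriers, at 125.02, 278, 365, 651, 819, 1189 and 2112 cpm. The 23 P6- carriers ran from 86.2 to 6021 cpm with a median of 1070.2 cpm. The P6+ carriers lay inside this range. The pooled level was 185 cpm in P6+ and 312 cpm in P6- cells, a log2 ratio of -0.75. The carriers made up 21.9% of P6+ (9.28 to 39.97%) and 17.8% of P6- cells (11.7 to 25.5%).

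*Cd84*, a self-binding receptor of follicular helper T and B cells, had the largest difference of the family between these groups in the main processing. Without the cell with most reads in each group *Ly9* had the largest. *Cd84* had 4 P6+ carriers, at 92.4, 201, 350.4 and 590.3 cpm. The 11 P6- carriers had a median of 1172 cpm and a lowest value of 124.8 cpm. The pooled level was 52.4 cpm in P6+ and 103.5 cpm in P6- cells, a log2 ratio of -0.97 (1.96-fold), and of -1.65 after thinning. The share of carriers was 12.5% in P6+ (3.51 to 28.99%) and 8.53% in P6- cells (4.33 to 14.7%), so the lower pooled level did not come with a lower share of carriers.

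*Ly9* (CD229) had 3 P6+ carriers, at 304, 614 and 1519.6 cpm, and 6 P6- carriers with a median of 1649 cpm. Its pooled level was 56.2 cpm in P6+ and 76.1 cpm in P6- cells, a log2 ratio of -0.43. *Cd48*, the ligand gene, had 8 P6+ carriers between 189 and 891 cpm and 18 P6- carriers between 31.2 and 5268 cpm. Its pooled level was 97.5 cpm in P6+ and 113.3 cpm in P6- cells, a log2 ratio of -0.21. The share of *Cd48* carriers was 25% in P6+ (11.5 to 43.4%) and 13.95% in P6- cells (8.48 to 21.2%). For these genes, too, the ranges of carriers and the intervals of the shares overlapped.

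*Sh2d1a* was the member with the most carriers. The 9 P6+ carriers stood at 99.7, 162, 259, 279, 341, 410.1, 476, 745 and 1143 cpm. The 32 P6- carriers ran from 11.6 cpm upwards with a median of 470 cpm, against 341 cpm in P6+. The pooled level was 127.7 cpm in P6+ and 154 cpm in P6- cells, a log2 ratio of -0.26, and carriers made up 28.1% (13.7 to 46.7%) and 24.8% (17.6 to 33.2%) of the cells. With each cell thinned to 500000 reads at random, the P6+ carriers were as many for each member, and the P6- carriers of *Sh2d1a* were 31.

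**Figure D3:**
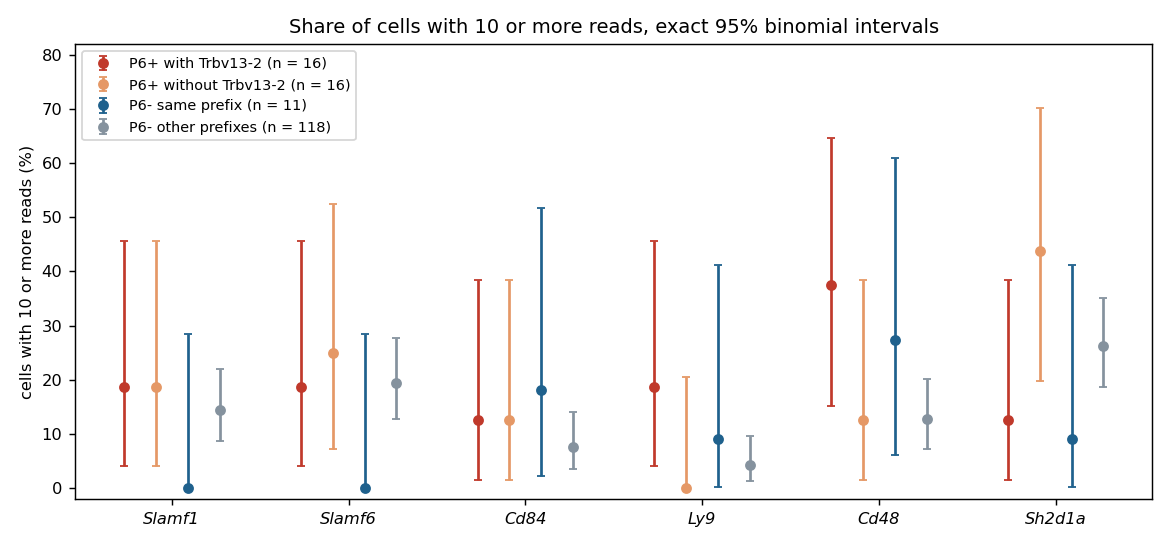
Points are the percentage of cells with 10 or more reads of each gene in 4 groups, with exact 95% binomial intervals for counting error. The intervals of all groups overlap for each gene, for example 12.5% and 43.8% for Sh2d1a in P6+ cells with and without Trbv13-2.

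A pooled level could rest on 1 cell. One P6+ cell held 50.99% of the P6+ reads of *Slamf1* and one held 42.3% of those of *Slamf6*. With the cell of most reads left out of each group, gene by gene, *Slamf1* (log2 ratio -1.21), *Slamf6* (-1.25), *Cd84* (-1.48) and *Ly9* (-1.54) were more than 2-fold lower in P6+ cells, so the count of members past 2-fold was 4 in place of 0. In the same step 2669 of the 6944 genes tested were past 2-fold lower and 1154 higher. The median over all genes tested moved to -0.43.

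Against the 11 P6- cells of the same prefix the picture was different, and 5 of 6 members passed 2-fold, 2 higher (*Slamf1*, *Slamf6*) and 3 lower (*Cd84*, *Ly9*, *Cd48*). Over all 7915 genes tested, 73.4% passed 2-fold, 49.6% higher and 23.7% lower, and the median of all genes was 0.97, so that log2 ratios near that value are no difference from the bulk of genes. *Slamf1* had 7 reads in the 11 cells together, 0.453 cpm, against 187 cpm in P6+ cells, a log2 ratio of 7.01, and of 2.69 to 8.40 over 11 alternatives in the processing. The value of 2.69 was that of all deposited cells, which adds 1 P6- cell of this prefix that failed the filters. *Slamf6* had 18 reads, 1.17 cpm, against 185 cpm, a log2 ratio of 6.43 (4.13 to 7.20). Both genes were past the filter on low values only through P6+ cells. There were 0 carriers of either among the 11 passing cells, which allows a share of up to 27.3%, above the 18.8% and 21.9% of P6+ cells, so a difference in share was not detectable at this number of cells.

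The 3 members that were lower rested on 1 to 3 cells of the same prefix. *Cd84* had 2 carriers there and stood at 303 cpm, against 52.4 cpm in P6+ cells (log2 ratio -2.51, and -3.82 after thinning). *Cd48* had 3 carriers and 623 cpm, against 97.5 cpm (log2 ratio -2.66, and -2.005 without the cell with most reads in each group). *Ly9* had 1 carrier and 192 cpm, against 56.2 cpm (log2 ratio -1.76), and without the cell with most reads in each group its log2 ratio was 3.93. *Sh2d1a* had 1 carrier, at 1657 cpm, and a pooled level of 110.9 cpm, against 127.7 cpm in P6+ cells, a log2 ratio of 0.20. Its log2 ratio was -0.36 after thinning and 6.62 without the cell with most reads.

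Among P6- cells alone, the pools of the 8 prefixes differed by far more than the P6+ and P6- pools did. *Slamf1* ran from 0.453 cpm for the prefix of the P6+ cells (P6) and 5.29 cpm on P4 to 674 cpm on P9. *Slamf6* ran from 1.17 cpm on P6 to 699 cpm on P8. These receptors thus had carriers under 7 of the 8 prefixes each and lacked them under the prefix of all P6+ cells. *Cd48* ran the other way, from 0.356 cpm on P5 to 623 cpm on P6, and *Cd84* from 0.0516 cpm on P7 to 303 cpm on P6. *Sh2d1a* varied least, from 88.9 cpm on P4 to 306 cpm on P9, and had carriers under all 8 prefixes.

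**Figure D4:**
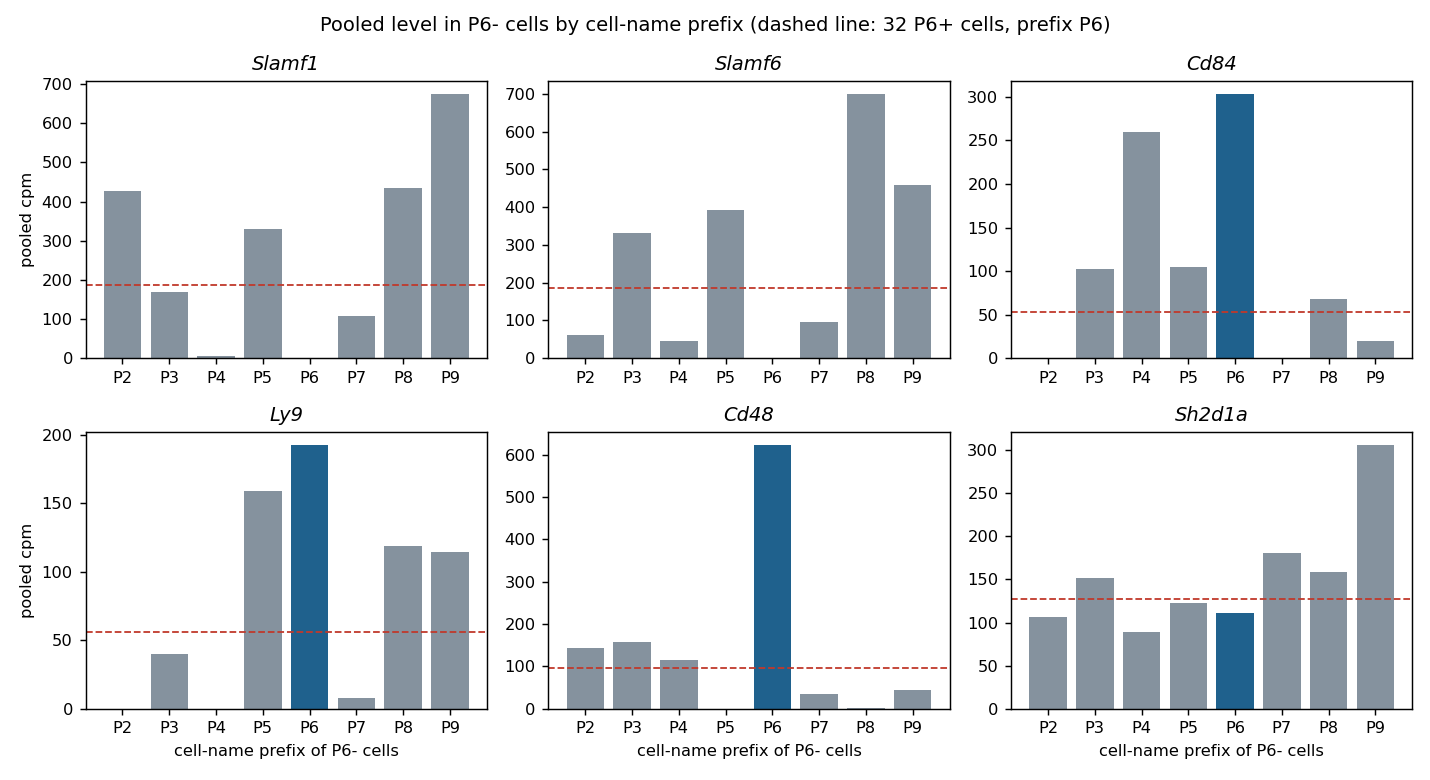
Bars are pooled cpm of P6- cells under each of the 8 cell-name prefixes (P2 to P9, 11 to 24 cells each), with the prefix shared with the P6+ cells in blue, and the dashed line is the pooled cpm of the 32 P6+ cells. Bars of one gene differ widely between prefixes, from 0.453 to 674 cpm for Slamf1, and least for Sh2d1a, from 88.9 to 306 cpm.

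Between P6+ cells with and without *Trbv13-2*, which came from the same mouse and shared a name prefix, the pooled level was lower with *Trbv13-2* for *Slamf6*, *Cd84* and *Sh2d1a* and higher for *Ly9*, each by more than 2-fold. *Trbv13-2* itself had 48 to 780 reads in the first 16 cells and at most 1 read in the others. These 4 of 6 members stand against 67.5% of the 7792 genes tested, 34.4% higher and 33% lower, so the share of members was close to that of all genes. The median log2 ratio was -0.22 over the members and 0.01 over all genes tested.

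*Slamf6* had 3 carriers with *Trbv13-2*, at 125.02, 278 and 365 cpm, and 4 without, at 651, 819, 1189 and 2112 cpm. The levels of these few carriers did not overlap between the 2 groups, which was also so for *Cd84*, with 2 carriers on each side. The share of all genes that separate in this way was not counted. The groups differed by 1 *Slamf6* carrier. The pooled level of *Slamf6* was 44.5 cpm with and 331 cpm without *Trbv13-2*, a log2 ratio of -2.87, and from -3.13 to -2.46 over 13 alternatives in the processing.

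*Sh2d1a* had 2 carriers with *Trbv13-2*, at 410.1 and 745 cpm, and 7 without, between 99.7 and 1143 cpm. Here the difference lay in the number of carriers, 12.5% (1.55 to 38.3%) against 43.8% (19.8 to 70.1%), with intervals that overlapped. The pooled level was 80.1 cpm with and 177 cpm without, a log2 ratio of -1.13, and of -2.12 without the cell with most reads on each side. *Cd84* had 2 carriers on each side, at 92.4 and 201 cpm with and at 350.4 and 590.3 cpm without *Trbv13-2*, and its log2 ratio was -1.46.

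All 3 *Ly9* carriers had *Trbv13-2*, and the 16 cells without it held 8 *Ly9* reads together. The pooled levels were 110.2 and 0.275 cpm, a log2 ratio of 6.45, and of 4.89 without the cell with most reads on each side, which held 69.7% of the *Ly9* reads with *Trbv13-2*. *Ly9* was past the filter on low values only through the cells with *Trbv13-2*, and 0 carriers of 16 cells still allows a share of up to 18.8%, the share seen in the cells with *Trbv13-2*, so a difference in share was not detectable. *Slamf1* had 3 carriers on each side and a log2 ratio of 0.99, and 0.16 without the cell with most reads on each side. That cell held 75.7% of the *Slamf1* reads of its group. *Cd48* had 6 carriers with and 2 without *Trbv13-2*, at 120.1 and 74.1 cpm pooled, a log2 ratio of 0.69, which was 2.59 without the cell with most reads on each side.

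Carriers were also set beside 4 lineage genes measured in the same cells. *Foxp3* defines regulatory T cells, and *Tcf7* encodes TCF1 of naive, memory and follicular helper cells. *Bcl6* is the follicular helper factor, and *Cxcr5* encodes the receptor that leads cells to B cell follicles. The 4 *Slamf6* carriers without *Trbv13-2* were all *Sh2d1a* carriers, 3 of them had 10 or more reads of *Tcf7*, 2 of *Bcl6* and 0 of *Foxp3*. Of the 12 other cells without *Trbv13-2*, 3 carried *Sh2d1a*, 4 *Tcf7*, 4 *Bcl6* and 2 *Foxp3*. The 3 *Slamf6* carriers with *Trbv13-2* all had *Foxp3*, and 0 had *Sh2d1a*, *Tcf7* or *Bcl6*. One of them, also a *Slamf1* carrier, had only 22 reads of *Foxp3* (8.60 cpm), far below the carrier median of 878 cpm. *Tcf7* and *Bcl6* had 0 carriers among all 16 cells with *Trbv13-2*, so this part of the pattern is that of the whole group, whereas *Foxp3* was carried by 9 of these 16 cells.

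Within P6+ cells, 5 of the 9 *Sh2d1a* carriers had *Bcl6*, against 1 of the 23 other cells, and 5 of 9 had *Tcf7*, against 2 of 23. In the cells without *Trbv13-2*, which held all carriers of these 2 factors, the numbers were 5 of 7 against 1 of 9 for *Bcl6* and 5 of 7 against 2 of 9 for *Tcf7*. For *Foxp3* the numbers were 1 of 9 *Sh2d1a* carriers against 10 of 23, but within the groups they were 1 of 2 against 8 of 14 with *Trbv13-2* and 0 of 7 against 2 of 9 without. *Sh2d1a* was carried by 0 of the 6 *Slamf1* carriers, against 9 of the 26 other cells (34.6%), numbers too small to tell these apart. *Foxp3* was carried by 4 of the 6 *Slamf1* carriers, against 7 of the 26 other cells (3 of 3 against 6 of 13 with *Trbv13-2*, 1 of 3 against 1 of 13 without). *Cd48* carriers had *Foxp3* in 5 of 8 cases, against 6 of 24 other cells, and these were 5 of 6 against 4 of 10 with *Trbv13-2* and 0 of 2 against 2 of 14 without. *Cxcr5* went the other way from *Bcl6* and *Tcf7*. It was carried by 0 of the 9 *Sh2d1a* carriers, against 3 of the 23 other cells. Among the 7 *Slamf6* carriers it was carried by 0, against 3 of the 25 others, numbers again too small to tell apart. All of these counts are descriptions of cells of 1 mouse.

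In P6- cells these pairs were counted too. *Sh2d1a* carriers had *Bcl6* in 3 of 32 cases, against 9 of 97 other cells, and *Tcf7* in 15 of 32, against 30 of 97. *Slamf1* carriers had *Sh2d1a* in 7 of 17 cases (41.2%), against 22.3% of the other cells. *Slamf6* carriers had *Sh2d1a* in 9 of 23 cases (39.1%), against 21.7% of the others, and *Tcf7* in 11 of 23 (47.8%), against 32.1%. They had *Bcl6* in 2 of 23 cases (8.70%), against 9.43% of the others, and *Foxp3* in 3 of 23 (13.04%), against 15.1%. *Cd48* carriers had *Foxp3* in 6 of 18 (33.3%), against 11.7%. *Foxp3* was carried by 2 of 17 *Slamf1* carriers (11.8%), against 15.2% of the others, and by 4 of 32 *Sh2d1a* carriers (12.5%), against 15.46%. Differences between P6+ and P6- cells in these counts were not tested.

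**Figure D5:**
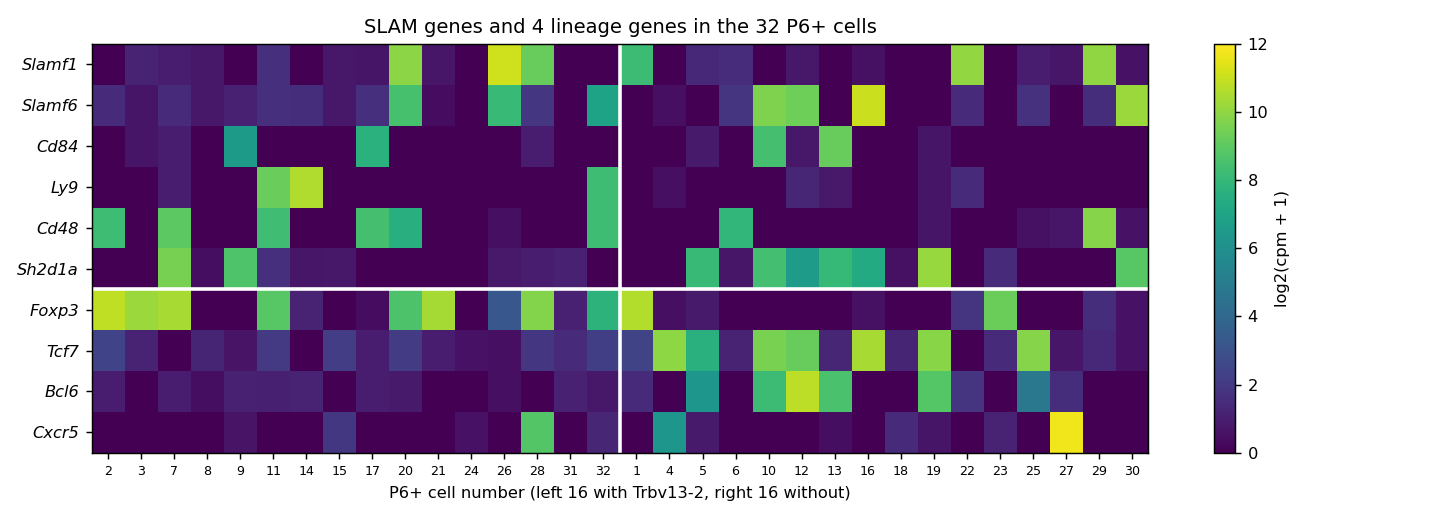
Columns are the 32 P6+ cells, 16 with Trbv13-2 to the left of the white line and 16 without to the right, rows are 6 SLAM genes and Foxp3, Tcf7, Bcl6 and Cxcr5, and colour is log2(cpm + 1). Bright cells of Sh2d1a, Tcf7 and Bcl6 gather on the right, with 7, 7 and 6 carriers there, and those of Foxp3 and Ly9 on the left, with 9 and 3.

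Few cells carried several receptor genes at once. At least 1 of the 6 receptors was carried by 19 of 32 P6+ cells (59.4%, 40.6 to 76.3%) and by 57 P6- cells (44.2%, 35.5 to 53.2%). Exactly 1 receptor was carried by 12 P6+ and 41 P6- cells, and 3 or more by 2 P6+ and 3 P6- cells. *Sh2d1a* was carried together with a receptor by 7 P6+ cells, and 12 P6+ cells carried a receptor without it.

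Of 7 further genes of the family, 6 were in the table. *Cd2*, the receptor of CD48 on T cells, had at least 1 read in all 161 cells and 10 or more in 29 P6+ and 99 P6- cells, and stood at 1744 cpm in P6+ and 1561 cpm in P6- cells, a log2 ratio of 0.16. *Cd244a*, the other receptor of CD48, had 0 reads in P6+ and 3 in P6- cells. *Slamf8* had 6 reads and *Slamf9* 1 read, all in P6- cells, and the adapter genes *Sh2d1b1* and *Sh2d1b2* were at 0 throughout. Besides *Cd2*, this list thus held no gene with a measurable level here.

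Of 14 genes that act with or below the receptors, all were tested. Between P6+ and P6- cells 2 were past 2-fold higher and 3 lower (23.9% and 29.3% of all genes), with a median log2 ratio of -0.26. *Fyn*, the kinase brought in by SAP, stood at 17.9 cpm in P6+ (2 carriers) and 92.97 cpm in P6- cells (23 carriers), a log2 ratio of -2.32. *Prkcq*, a protein kinase C of the T cell receptor pathway, was at 54.8 cpm (1 carrier) and 244 cpm (18 carriers), a log2 ratio of -2.13. *Csk*, the kinase that restrains Src kinases, was at 272 and 84.3 cpm (1.68), and the adapter gene *Dok1* at 59.2 and 18.04 cpm (1.66). Against P6- cells of the same prefix 9 of the 14 were higher and 2 lower (49.6% and 23.7% of all genes), with *Fyn* at a log2 ratio of -1.81. *Prkcq* turned there, at 54.8 against 16.2 cpm, a log2 ratio of 1.70 from 1 carrier on each side. With against without *Trbv13-2*, 6 of 14 were higher and 0 lower (34.4% and 33% of all genes). *Prkcq* (6.58) and *Nck1* (3.60) had the highest ratios, each from 1 carrier with *Trbv13-2*, while *Rasa1* (-0.64) and *Lck* (-0.46) had the lowest.

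Of the follicular helper genes, 13 of 16 were tested between P6+ and P6- cells, 2 higher and 5 lower (23.9% and 29.3% of all genes). *Maf* (log2 ratio 1.42) and *Batf* (1.24), transcription factors also used by other effector cells, were the highest, and *Sostdc1* (-5.03) and *Btla* (-2.58) the lowest. *Sostdc1* had 0 P6+ and 5 P6- carriers and was past the filter on low values only through P6- cells. *Btla* had 2 and 8 carriers. *Bcl6* stood at 85.6 and 56.4 cpm, *Cxcr5*, the receptor that leads cells to B cell follicles, at 102.3 and 74.4 cpm, and *Tcf7* at 195 and 368 cpm. One P6+ cell held 88.5% of the *Cxcr5* reads and one 50.1% of the *Bcl6* reads, and without the cell with most reads in each group *Cxcr5* was at 12.1 and 41.9 cpm and *Bcl6* at 43.8 and 49.6 cpm, so that both directions turned. With against without *Trbv13-2*, 3 of 12 were higher and 6 lower (34.4% and 33% of all genes). *Tcf7* (-7.35) and *Bcl6* (-6.81) were the lowest, and *Btla* (4.47) and *Batf* (2.19) the highest. *Tcf7* and *Bcl6* had 0 carriers with *Trbv13-2*, and *Btla* had 2 with and 0 without it. Each of these was past the filter on low values only through the side with carriers. Against P6- cells of the same prefix 5 of 13 were higher and 3 lower (49.6% and 23.7% of all genes).

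Of the 14 regulatory T cell genes, 6 were higher and 1 lower in P6+ than in P6- cells (23.9% and 29.3% of all genes), led by *Klrg1* (3.56) and *Ikzf4* (2.33), with *Nrp1* (-3.10) and *Lrrc32* (0.52) lowest. *Foxp3* stood at 277 and 175 cpm. With against without *Trbv13-2*, 6 of 14 were higher and 1 lower (34.4% and 33% of all genes), with *Capg* (2.43) and *Foxp3* (2.23) highest and *Nrp1* (-3.12) and *Lrrc32* (-0.31) lowest. *Nrp1* had 0 carriers with and 1 without *Trbv13-2*, at 0.364 and 10.9 cpm, and was past the filter on low values only through that cell. Against P6- cells of the same prefix 10 of 13 were higher and 1 lower (49.6% and 23.7% of all genes, with a median log2 ratio of 0.97 over all of them). These lists give the setting in which the SLAM genes were read, and their counts say nothing of the SLAM genes themselves.

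No gene followed a SLAM gene closely over cells. Among 4034 genes with 10 or more reads in at least 16 of the 161 passing cells, the highest Pearson correlation of log2(cpm + 1) was 0.42, between *Ly9* and *Lin37*, a subunit of the DREAM complex. The nearest genes were *Cyb5r4*, *Rpl36a* and *Rpl36a-ps2* for *Slamf1* (0.31 to 0.33), *Thoc1*, *Spg7* and *Lsm7* for *Slamf6* (0.33), and *Map4k4*, *Gm6542* and *1700123O20Rik* for *Cd84* (0.32 to 0.40). *Lin37* was followed for *Ly9* by *2310033P09Rik* and *Flii* (0.37 and 0.34). The nearest were *Cox7b*, *Aup1* and *Prpf8* for *Cd48* (0.35 each) and *Actb* and *Pdcd6ip* for *Sh2d1a* (0.28 each). By Spearman's rank correlation these genes ranked from 1 (*Actb*) and 2 (*Aup1*) to 1404 (*Cyb5r4*) and 2420 (*Flii*) for their member. Within P6+ cells alone the Pearson correlation ran from -0.06 (*Rpl36a-ps2*) to 0.63 (*1700123O20Rik*). In sparse reads such values are weak, and the cells share name prefixes, depth and amplification. Between the members themselves, the correlation of *Slamf6* with *Sh2d1a* over all 161 cells was 0.19.

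Some members share ground with other genes, and whether reads were counted by strand is not given in the sources used here. *Ly9* overlaps *Cd244a* on the other strand, *Sh2d1a* overlaps *Tenm1*, *Slamf6* overlaps *Gm37065*, *Slamf7* overlaps *Gm37787* and *Cd48* overlaps *Gm37010* on its own strand. The overlapping genes held 3, 5, 333, 0 and 3182 reads in the passing cells. *Gm37010* had 10 or more reads in 6 cells and *Gm37065* in 1 cell. Reads of a *Cd48* or a *Slamf6* carrier may there have been split between genes.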

How the data were processed

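The deposited table held read counts per gene and cell, made by the authors with STAR 2.6.0a, SAMtools 0.1.19 and FastQC 0.11.7 (per the labels), without molecular identifiers and with no normalization. A second deposited table gave the sign of tetramer binding, which went against the label of 0 of 176 cells. Names listed more than once (81 of 53546) were averaged over their lines. Cells passed at 500000 reads, 2000 genes and under 10% mitochondrial reads, which left 32 of 32 P6+ and 129 of 144 P6- cells (11 of the latter sharing the cell-name prefix of the P6+ cells, 118 not), with 522188 to 3401372 reads each. The study also filtered on the share of reads mapped, which gene counts do not give, and states 97 passing P6- cells, 32 fewer than used here. Counts were summed over cells and scaled to cpm, and log2 ratios used a pseudocount of 1 cpm, which understates changes of low genes. Genes with a mean under 5 cpm were left out, and 2-fold was called. With 1 sample a group there was no p-value. Poisson and binomial intervals (95%) were exact and cover counting error only, since reads are not independent molecules, and 0 counts were bounded at 3 counts. Ratios were checked on simulated cells that shared the same profile within a group. The check therefore did not cover the all-or-few pattern of these reads. Python 3.11.15, numpy 2.4.6, pandas 2.3.3, scipy 1.17.1 and R 4.3.3 were used, with edgeR 4.0.16 (TMM) and DESeq2 1.42.0 (size factors) for scaling alternatives alone. Named genes were the members, the 3 genes nearest to each except *Slamf7* (24 reads), the lineage genes and, for 2 of the comparisons, the 2 highest and 2 lowest of each list. One gene that this rule names is not reported here. In the comparison within the prefix only *Fyn* and *Prkcq* of these lists were named. The members and lists were chosen with earlier results of these data known.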

Additional observations from a re-analysis of the deposited data

Results flagged for a closer look

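In P6- cells pooled by cell-name prefix, *Cd48* under the prefix of the P6+ cells stood apart, at 623 cpm against 158 cpm under the next prefix. Its gap to that prefix was 0.746 of the whole range. In the same way *Sh2d1a* under prefix P9 stood at 306 cpm against 181 cpm under the next, a gap of 0.576 of the range. Chance singles out about 1 in 20 groups of evenly spread values. That rate was not tested for sparse values such as these, and the pools rest on 3 and 4 carriers among 11 and 14 cells. For *Cd48*, 1 cell held 57.5% of the reads under the prefix of the P6+ cells, and without it the pool stood at 284 cpm.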

How the results depend on the processing

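No paired analysis was possible because no result comes from a test and the replicate numbers only name cells in accession order. Of 210 alternative values of the member ratios, 205 kept their sign. Some of them could not have changed it. A pseudocount of 0.1 or 10 cpm cannot turn a ratio, and dropping the filter on low values leaves it as it was. Using all deposited cells kept the same 16 and 16 P6+ cells in the division by *Trbv13-2*. The number of kept signs is therefore no measure of stability. The count of members past 2-fold between P6+ and P6- cells was 0, and it was 1 (*Cd84*, lower) at 1000000 reads and 3000 genes per cell, with the mean of single cells, with TMM scaling and after thinning. It was 4 without the cell with most reads in each group, which for *Ly9* against the same prefix turned the log2 ratio from -1.76 to 3.93. The cause was not tested. The counts within the prefix (5 or 6) and by *Trbv13-2* (4 or 5) stayed within 1.5 times. Over all genes the same step took the share of higher calls from 44.98% to 30.2% against P6- cells and from 67.7% to 85.4% within the prefix, and the genes past 2-fold by *Trbv13-2* were 5259 of 7792 tested before and 3425 of 4960 after it. Leaving out the 2 cells with *Cd79b* was chosen after seeing the data. At 1 read, 62.5% of P6+ and 62.8% of P6- cells counted as carriers of *Slamf1*. The number of carriers limits every result: 3 to 9 P6+ cells for each member other than *Slamf7*.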
